A study of Mus musculus with 12 samples.

Results

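Cells carry a small set of proteins that detect RNA or DNA in the wrong place, and the levels of 10 of the genes that encode them are described here in mouse fat cell precursors and adipocytes with and without ATP-citrate lyase (Acly). The 10 genes were chosen by name from the table of 24341 genes: Ddx58, Ifih1, Dhx58, Zbp1, Tlr3, Eif2ak2, Adar, Mavs, Mb21d1 and Tmem173. This choice, like that of the related lists below, was made with earlier results of these data known. Shares and medians over all genes are therefore given for scale and are no test of a set. All 10 were found and all 10 passed a filter on low values, which asked for 1 FPKM or more in 3 or more of the 12 libraries. FPKM counts sequenced fragments per length of transcript and per depth of the library.

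RNA was sequenced in 4 groups of 3 libraries, all from SV40-immortalised cells of C57Bl/6 adipose tissue. The groups are Acly-/- preadipocytes and Aclyf/f preadipocytes, both taken on day 0, and Acly-/- adipocytes and Aclyf/f adipocytes, both taken on day 4 after an adipogenic cocktail with rosiglitazone. Aclyf/f cells carry the conditional allele and are the control for the Acly-/- cells at each stage, and every group carries the SV40 immortalisation. How Acly was deleted, and whether the replicates are separate cultures, clones or animals, is not stated by the labels. The p-values therefore cover the spread between these libraries alone.

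RIG-I (Ddx58) and MDA5 (Ifih1) are helicases that bind double-stranded RNA in the cytosol and signal through the mitochondrial adaptor MAVS, while LGP2 (Dhx58) binds such RNA but lacks the signalling domains and tunes the other two. TLR3 reads double-stranded RNA in endosomes, ZBP1 binds left-handed Z-form nucleic acids and can start necroptosis, and cGAS (Mb21d1) makes a cyclic dinucleotide on DNA that activates STING (Tmem173). PKR (Eif2ak2) stops translation when it binds double-stranded RNA, and ADAR1 (Adar) edits such RNA from A to I so that the sensors are less active on it. The RIG-I-like receptor, TLR3 and cGAS-STING routes lead to type I interferon. Many of the sensor genes are themselves induced by interferon through complexes that bind the interferon-stimulated response element.

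Acly itself was measured in every library first. It had 11.9, 11.9 and 12.5 FPKM in Acly-/- preadipocytes, against 84.9, 86.2 and 89.5 FPKM in Aclyf/f preadipocytes. In adipocytes it had 11.02, 12.8 and 13.2 FPKM in Acly-/- cells, against 722, 724 and 814 FPKM in Aclyf/f cells. The groups do not overlap at either stage, and a remainder of Acly signal was present in all 6 Acly-/- libraries. Library depths were estimated to differ by up to 1.93-fold, and 10977 to 11143 genes reached 1 FPKM in each. The log2 values of 2 libraries of the same group correlated at 0.986 to 0.993 across genes, and those of libraries of different groups at 0.819 to 0.964. One library, Acly-/- preadipocyte replicate 3, had 15.5% of its FPKM sum in its 10 highest genes, against 6.21 to 9.07% in the other libraries. Its highest entry was a small nucleolar RNA, Snord12.

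Where the sensor genes start, the sequence was read from RefSeq on build GRCm38.p6. The search covered 7 of the 10 genes in 9 windows, each with 250 bases before and 50 bases after the annotated start. No window of Zbp1, Dhx58 or Tmem173 was searched, so the counts below leave these genes out. Of these, Zbp1 and Dhx58 were higher and Tmem173 lower in Acly-/- than in Aclyf/f preadipocytes. The response element core was searched as GAAANNGAAA on both strands, and a shorter form that the longer one contains, GAAANNGAA, was added after the first search. The longer form was found in 3 of the 7 genes, Ddx58, Ifih1 and Eif2ak2, and in 3.44% of all 32851 windows in that table. The shorter form was found in 4 of the 7 genes, Adar being the added one, and in 8.56% of all windows. Counted by window, as those percentages are, 3 of the 9 hold the longer form and 4 of the 9 the shorter. The windows shown are the 4 that hold a match and that of Tlr3, a gene that rose about as much as Dhx58 and in whose window neither form was found. Each is written 5′ to 3′ along the strand of the gene, and capitals mark the bases that match either form.
Ddx58, chr4:40239776-40240075, minus strand: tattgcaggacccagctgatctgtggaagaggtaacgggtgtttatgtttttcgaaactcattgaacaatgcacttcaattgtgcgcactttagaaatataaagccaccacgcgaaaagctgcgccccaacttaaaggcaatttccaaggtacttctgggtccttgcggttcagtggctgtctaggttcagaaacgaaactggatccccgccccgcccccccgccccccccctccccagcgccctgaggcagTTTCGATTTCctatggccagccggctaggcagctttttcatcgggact
Ifih1, chr2:62646206-62646505, minus strand: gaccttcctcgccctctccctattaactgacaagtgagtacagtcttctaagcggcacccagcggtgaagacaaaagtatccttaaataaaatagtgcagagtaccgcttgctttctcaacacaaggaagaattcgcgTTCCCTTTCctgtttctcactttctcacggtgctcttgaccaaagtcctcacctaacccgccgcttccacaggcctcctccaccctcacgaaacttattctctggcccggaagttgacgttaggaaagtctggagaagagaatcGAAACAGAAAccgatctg
Eif2ak2, chr17:78882523-78882822, minus strand: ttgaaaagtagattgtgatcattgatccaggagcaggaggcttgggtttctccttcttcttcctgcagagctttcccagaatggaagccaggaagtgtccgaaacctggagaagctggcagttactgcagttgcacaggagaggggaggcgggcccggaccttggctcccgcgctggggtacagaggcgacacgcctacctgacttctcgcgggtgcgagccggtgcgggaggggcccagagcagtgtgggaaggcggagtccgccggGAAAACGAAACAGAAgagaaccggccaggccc
Adar, chr3:89730468-89730767, plus strand: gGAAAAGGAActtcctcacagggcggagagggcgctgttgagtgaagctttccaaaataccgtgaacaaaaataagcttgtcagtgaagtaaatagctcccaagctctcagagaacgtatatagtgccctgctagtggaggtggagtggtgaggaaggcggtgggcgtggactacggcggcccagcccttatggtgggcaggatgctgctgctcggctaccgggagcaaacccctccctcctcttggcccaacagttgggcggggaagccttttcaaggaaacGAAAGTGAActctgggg
Tlr3, chr8:45410331-45410630, minus strand: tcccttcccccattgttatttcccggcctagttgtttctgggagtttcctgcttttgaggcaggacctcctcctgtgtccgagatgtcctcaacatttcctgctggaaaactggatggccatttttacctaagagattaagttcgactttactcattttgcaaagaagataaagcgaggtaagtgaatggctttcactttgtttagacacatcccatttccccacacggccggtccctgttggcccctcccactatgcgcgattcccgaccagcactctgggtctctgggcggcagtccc
Counted from 1 at the annotated start, the longer match lies at bases 3 to 12 in Ddx58, on the opposite strand, at bases 33 to 42 in Ifih1 and at bases 19 to 28 in Eif2ak2, both on the strand of the gene. In Adar, which has 3 annotated starts, the shorter match at bases 34 to 42 belongs to the start shown, as does a second one near the upstream end of the window, and neither form was found at the other two. The window of Ifih1 likewise holds a separate match to the shorter form upstream of the start. The remaining windows searched, those of Mavs and Mb21d1, held neither form. A match of letters describes the window and is no evidence that a factor was bound there.

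In preadipocytes, 8 of the 10 sensor genes were higher in Acly-/- than in Aclyf/f cells and 2, Mavs and Tmem173, were lower, all at a limma p-value adjusted over all 11777 genes tested of under 0.05, the threshold used throughout. Of all genes tested, 19.7% were called higher and 22.4% lower in this comparison. The median log2 change of the 10 genes was 1.46, beside -0.01 over all genes tested, and the 5th and 95th percentiles of all genes were -0.71 and 0.74. All log2 changes were computed from FPKM + 1, so those of low genes are understated, and folds are ratios of mean FPKM. The 10 genes together summed to 510, 649 and 581 FPKM in the Acly-/- preadipocyte libraries, against 183, 192 and 179.5 FPKM in the Aclyf/f preadipocyte libraries. In bulk RNA a change in the share of cells that express a gene and a change in RNA per cell cannot be told apart.

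**Figure D1:**
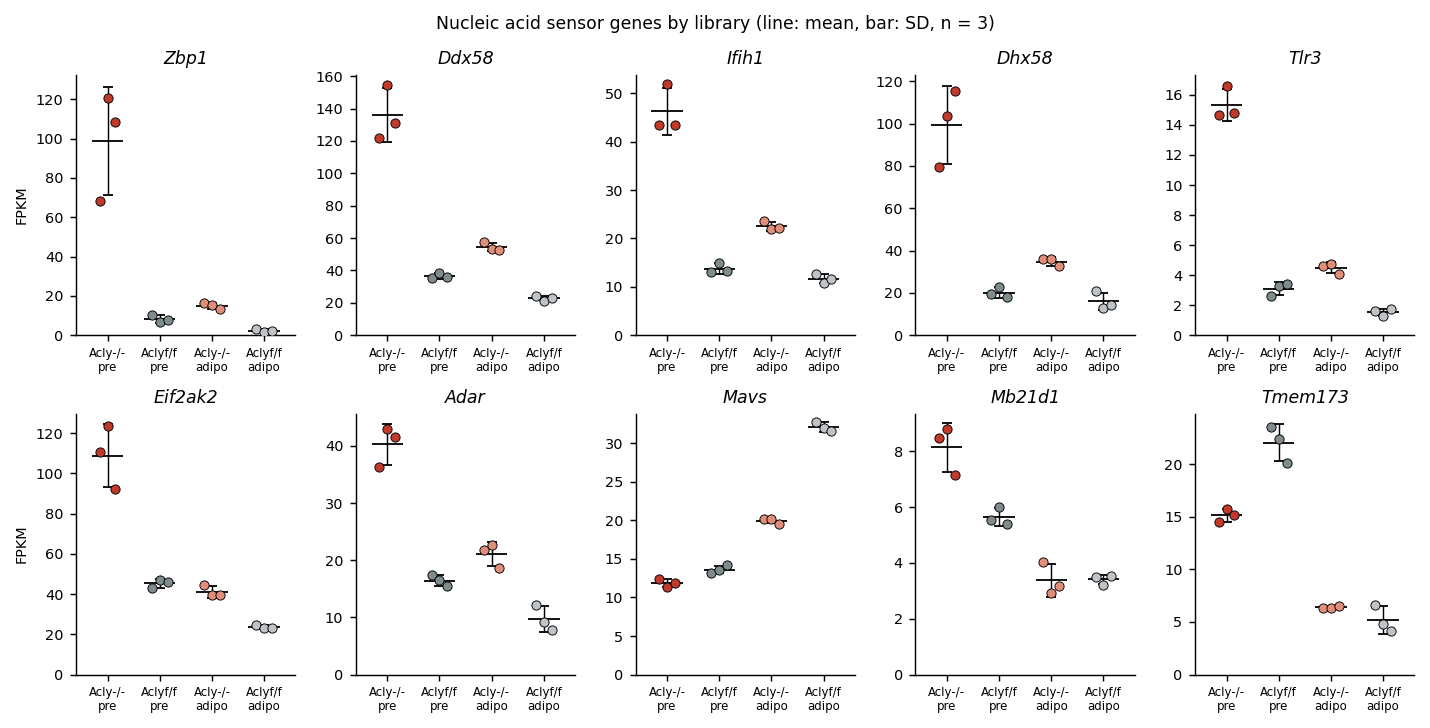
FPKM of each of the 10 sensor genes in the 12 libraries, 1 panel per gene with its own axis from 0; points are libraries, the long line is the mean and the bar the SD of 3 libraries. In 8 panels, Zbp1 to Adar and Mb21d1, the 3 Acly-/- preadipocyte libraries lie above all other libraries, while Mavs is highest in Aclyf/f adipocytes and Tmem173 in Aclyf/f preadipocytes.

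The 3 RIG-I-like receptor genes all rose in Acly-/- preadipocytes. Ddx58, on chromosome 4 (40203777 to 40239825, mm10), had 122, 154 and 131 FPKM in Acly-/- preadipocytes, against 35.3, 38.6 and 36.1 FPKM in Aclyf/f preadipocytes. The lowest Acly-/- library was above the highest Aclyf/f library by more than the whole range of either group, a 3.71-fold difference of means (log2 change 1.86 ± 0.09, SE, adjusted p = 6.76e-09). Ddx58 was also the highest of the 10 genes in Acly-/- preadipocytes, although its range there overlapped that of Eif2ak2. Ifih1, on chromosome 2 (62595793 to 62646255), had 43.4, 51.8 and 43.5 FPKM in Acly-/- preadipocytes, against 13.1, 14.98 and 13.3 FPKM in Aclyf/f preadipocytes. Again the groups were apart, by 3.36-fold (log2 change 1.67 ± 0.09, SE, adjusted p = 1.47e-08). Dhx58, on chromosome 11 (100694884 to 100704271), had 79.4, 104 and 115 FPKM in Acly-/- preadipocytes, against 19.3, 22.9 and 17.9 FPKM in Aclyf/f preadipocytes. It showed the largest change of the 3 receptors, 4.97-fold (log2 change 2.25 ± 0.16, SE, adjusted p = 1.84e-07), and the widest spread among Acly-/- preadipocyte libraries, with an SD of 18.4 FPKM. The RIG-I-like receptors made up 47.7 to 49.9% of the summed FPKM of the 10 genes in Acly-/- preadipocytes, against 36.9 to 39.8% in Aclyf/f preadipocytes.

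Dhx58 lies 166.9 kb from Acly on the same chromosome. Of the genes tested between them, Cnp, Dnajc7, Nkiras2, Ttc25 and Zfp385c had log2 changes of -0.24 to 0.25 in preadipocytes, and of these Dnajc7 alone was called, as lower (adjusted p = 0.0185 in limma). In adipocytes the same 5 genes had log2 changes of -0.98 to -0.01, and all but Dnajc7 were called lower. Dhx58 shares 141 exon bases with an antisense gene, Dhx58os, and whether the authors' counting used strand is not stated. Reads from overlapping antisense genes therefore cannot be told apart here, which also touches Tlr3, Eif2ak2, Mb21d1 and Adar.

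In adipocytes the same 3 receptors were higher in Acly-/- than in Aclyf/f cells, by smaller folds. Ddx58 had 57.5, 53.2 and 52.6 FPKM in Acly-/- adipocytes, against 24.0, 21.4 and 22.8 FPKM in Aclyf/f adipocytes, which is 2.39-fold (log2 change 1.22 ± 0.09, SE, adjusted p = 7.41e-08). Ifih1 had 23.6, 21.9 and 22.2 FPKM in Acly-/- adipocytes, against 12.6, 10.8 and 11.6 FPKM in Aclyf/f adipocytes, or 1.93-fold (log2 change 0.89 ± 0.09, SE, adjusted p = 1.89e-06). For both genes the spread within a group was a small part of the gap between groups. Dhx58 had 35.8, 36.0 and 32.6 FPKM in Acly-/- adipocytes, against 20.8, 12.9 and 14.2 FPKM in Aclyf/f adipocytes, or 2.18-fold (log2 change 1.10 ± 0.16, SE, adjusted p = 6.89e-05). The groups of Dhx58 do not overlap either, and Aclyf/f adipocyte replicate 1 stood above the other 2 of its group, as it also did for Zbp1, Adar and Tmem173.

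Over all 10 genes in adipocytes, 7 were higher in Acly-/- than in Aclyf/f cells, 1 was lower and 2 were not called. Of all genes tested, 25.6% were called higher and 29.2% lower. The median log2 change of the 10 genes was 0.98, beside -0.02 over all genes tested. Their summed FPKM was 212 to 234 in Acly-/- adipocytes, against 120.5 to 142 in Aclyf/f adipocytes, so the sums do not overlap at this stage.

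Zbp1 showed the largest change of the 10 genes at both stages. On chromosome 2 (173206612 to 173218922), it had 68.1, 120.5 and 108 FPKM in Acly-/- preadipocytes, against 10.5, 6.72 and 7.54 FPKM in Aclyf/f preadipocytes. The lowest Acly-/- library was several times the highest Aclyf/f library, and the means differed 11.99-fold (log2 change 3.41 ± 0.21, SE, adjusted p = 5.12e-08). Of the 11777 genes tested, 7 had a larger positive log2 change in this comparison. In adipocytes Zbp1 had 16.2, 15.2 and 13.4 FPKM in Acly-/- cells, against 3.25, 1.65 and 2.29 FPKM in Aclyf/f cells, or 6.23-fold (log2 change 2.25 ± 0.21, SE, adjusted p = 1.27e-06). Aclyf/f adipocyte libraries rested on few fragments for this gene, about 42 in replicate 2. Zbp1 also moved in rank among the 10 genes: by level it ranked 4 in Acly-/- preadipocytes and 8 in Aclyf/f preadipocytes, and 7 in Acly-/- adipocytes and 9 in Aclyf/f adipocytes. Its share of the summed FPKM was 13.4 to 18.6% in Acly-/- preadipocytes, against 3.50 to 5.74% in Aclyf/f preadipocytes, and 6.32 to 6.92% in Acly-/- adipocytes, against 1.37 to 2.29% in Aclyf/f adipocytes.

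Tlr3, the endosomal receptor, was the lowest of the 10 genes in Aclyf/f cells and among those with the largest folds. On chromosome 8 (45395665 to 45410539), it had 14.6, 16.6 and 14.8 FPKM in Acly-/- preadipocytes, against 2.62, 3.28 and 3.42 FPKM in Aclyf/f preadipocytes. The groups were far apart, 4.93-fold (log2 change 1.99 ± 0.10, SE, adjusted p = 1.47e-08). In adipocytes it had 4.62, 4.77 and 4.07 FPKM in Acly-/- cells, against 1.61, 1.27 and 1.71 FPKM in Aclyf/f cells, or 2.93-fold (log2 change 1.12 ± 0.10, SE, adjusted p = 1.24e-06). In Aclyf/f preadipocytes its range was apart from that of the next gene, Mb21d1, and in Aclyf/f adipocytes it overlapped that of Zbp1.

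The 2 effectors that act on double-stranded RNA rose together at both stages. Eif2ak2, on chromosome 17 (78852550 to 78882572), had 111, 123 and 92.1 FPKM in Acly-/- preadipocytes, against 42.8, 47.0 and 46.1 FPKM in Aclyf/f preadipocytes. The groups do not overlap, and the means differed 2.40-fold (log2 change 1.24 ± 0.10, SE, adjusted p = 3.44e-07). Eif2ak2 was the highest of the 10 genes in Aclyf/f preadipocytes. In adipocytes it had 44.4, 39.6 and 39.4 FPKM in Acly-/- cells, against 24.7, 23.3 and 23.0 FPKM in Aclyf/f cells, or 1.74-fold (log2 change 0.77 ± 0.10, SE, adjusted p = 1.52e-05). Adar, on chromosome 3 (89714469 to 89753455 in RefSeq), had 36.2, 43.0 and 41.5 FPKM in Acly-/- preadipocytes, against 17.3, 16.5 and 15.4 FPKM in Aclyf/f preadipocytes. This is a 2.45-fold difference between groups that do not overlap (log2 change 1.24 ± 0.13, SE, adjusted p = 5.53e-06). In adipocytes it had 21.8, 22.7 and 18.7 FPKM in Acly-/- cells, against 12.2, 9.11 and 7.72 FPKM in Aclyf/f cells, or 2.18-fold (log2 change 1.06 ± 0.13, SE, adjusted p = 1.30e-05). The table merges the locus of Adar with that of Chrnb2, a receptor subunit gene on the opposite strand that shares 1365 exon bases with it. Chrnb2 was between 0.0459 and 0.610 FPKM in all libraries.

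**Figure D2:**
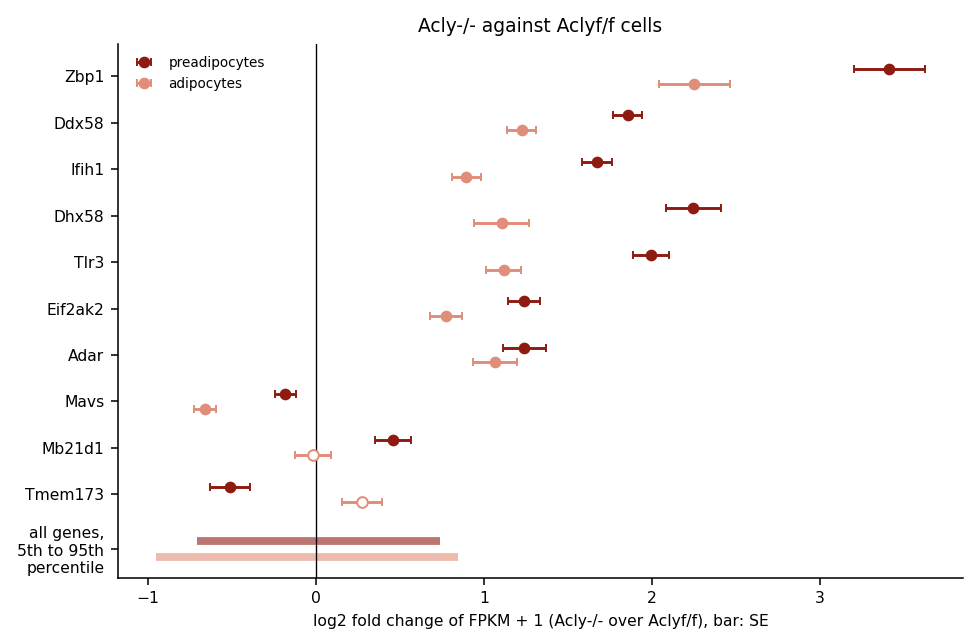
Log2 change of FPKM + 1, Acly-/- over Aclyf/f cells, for each sensor gene in preadipocytes (dark) and adipocytes (light); bars are the SE of the limma fit, filled points were called at an adjusted p under 0.05, open points were not, and the bands at the bottom run between the 5th and 95th percentiles of all genes tested. Zbp1 lies farthest right, at 3.41 in preadipocytes and 2.25 in adipocytes, and the open points are Mb21d1 and Tmem173 in adipocytes.

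The adaptor MAVS, on which both RIG-I and MDA5 depend, did not follow the receptors. Mavs had 12.4, 11.4 and 11.9 FPKM in Acly-/- preadipocytes, against 13.2, 13.5 and 14.2 FPKM in Aclyf/f preadipocytes. The groups do not overlap but lie close together, 0.872-fold (log2 change -0.18 ± 0.06, SE, adjusted p = 0.0353). This call was lost when only the 2 groups were fitted (adjusted p = 0.109) and with a replicate block (0.0644). It was also lost without Acly-/- preadipocyte replicate 2 (0.106) or 3 (0.0538), Aclyf/f preadipocyte replicate 2 (0.0745) or 3 (0.127), or Aclyf/f adipocyte replicate 2 (0.055) or 3 (0.0506). In adipocytes the gap was wider: 20.1, 20.2 and 19.6 FPKM in Acly-/- cells, against 32.8, 32.03 and 31.6 FPKM in Aclyf/f cells, or 0.621-fold (log2 change -0.66 ± 0.06, SE, adjusted p = 1.70e-06). Mavs was the highest of the 10 genes in Aclyf/f adipocytes, and it ranked 6 in Acly-/- adipocytes. RefSeq places it on chromosome 2 (131234063 to 131248025), while the table lists 1 locus for it and 12 other genes, among them Cdc25b, Cenpb and Pank2.

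The DNA sensor and its adaptor changed less than the RNA sensors, in opposite directions in preadipocytes and without a call in adipocytes in the main fit. Mb21d1, the gene of cGAS, on chromosome 9 (78430518 to 78443237), had 8.48, 8.81 and 7.14 FPKM in Acly-/- preadipocytes, against 5.52, 6.01 and 5.40 FPKM in Aclyf/f preadipocytes. The Acly-/- libraries were higher by 1.44-fold (log2 change 0.46 ± 0.11, SE, adjusted p = 0.00364). In adipocytes it had 4.03, 2.92 and 3.16 FPKM in Acly-/- cells, against 3.48, 3.21 and 3.53 FPKM in Aclyf/f cells. These ranges overlap, and the log2 change of -0.02 was not called, with a 95% interval of -0.25 to 0.21 (adjusted p = 0.889). Tmem173, the gene of STING, on chromosome 18, had 14.5, 15.7 and 15.1 FPKM in Acly-/- preadipocytes, against 23.6, 22.4 and 20.1 FPKM in Aclyf/f preadipocytes. It was lower in every Acly-/- preadipocyte library, 0.687-fold (log2 change -0.51 ± 0.12, SE, adjusted p = 0.00382). In adipocytes Tmem173 had 6.28, 6.29 and 6.55 FPKM in Acly-/- cells, against 6.62, 4.83 and 4.11 FPKM in Aclyf/f cells, with overlapping ranges. The log2 change of 0.27 had a 95% interval of 0.01 to 0.53 and was not called (adjusted p = 0.0691). Without Aclyf/f adipocyte replicate 1 it was called, at 0.43 (adjusted p = 0.00185).

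Most of the sensor genes were lower in adipocytes than in preadipocytes, a comparison that uses the same libraries as those above. In Acly-/- cells, 9 of the 10 genes were lower in adipocytes than in preadipocytes and Mavs was higher. Of all genes tested, 30.4% were called higher and 31% lower in adipocytes. The median log2 change of the 10 genes was -1.21, beside 0.00 over all genes tested. In Aclyf/f cells 8 genes were lower in adipocytes, Mavs was higher and Dhx58 was not called, with 36.5% of all genes called higher and 36% lower. There the median of the 10 genes was -0.68, beside 0.00 over all genes tested, and the 5th and 95th percentiles of all genes were -1.58 and 1.75.

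Zbp1 had the steepest fall in Acly-/- cells, to 14.9 ± 1.42 FPKM in adipocytes, against 99.0 ± 27.4 FPKM in preadipocytes (SD, n = 3 each; log2 change -2.61, adjusted p = 1.58e-07 in limma). In Aclyf/f cells it was 2.40 ± 0.805 FPKM in adipocytes, against 8.26 ± 2.00 FPKM in preadipocytes (log2 change -1.45, adjusted p = 3.06e-05). Tmem173 had the steepest fall in Aclyf/f cells, to 5.19 ± 1.29 FPKM in adipocytes, against 22.0 ± 1.75 FPKM in preadipocytes (log2 change -1.91, adjusted p = 4.95e-09). Its libraries at the 2 stages lie far apart in both genotypes, and in Acly-/- cells the log2 change was -1.13 (adjusted p = 2.25e-06). The log2 change of Eif2ak2 was -1.37 in Acly-/- cells and -0.91 in Aclyf/f cells, that of Tlr3 was -1.57 and -0.70, and that of Ddx58 -1.30 and -0.67. Adar had changes of -0.90 in Acly-/- cells and -0.73 in Aclyf/f cells, and Mb21d1 of -1.07 and -0.59, all of them called. The adaptor Mavs went the other way: it rose by 0.70 in Acly-/- cells (adjusted p = 5.23e-07) and by 1.18 in Aclyf/f cells (adjusted p = 1.11e-09).

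Ifih1 and Dhx58 had the smallest differences between the stages in Aclyf/f cells. Ifih1 was 11.7 ± 0.893 FPKM in Aclyf/f adipocytes, against 13.8 ± 1.04 FPKM in Aclyf/f preadipocytes (SD, n = 3 each; log2 change -0.22, adjusted p = 0.0363 in limma), and its ranges do not overlap. That call was lost with no filter on low values (adjusted p = 0.0692), with each library set to the same FPKM sum (0.089) and with a replicate block (0.0533). It was lost too without Aclyf/f preadipocyte replicate 2 (0.15), Aclyf/f adipocyte replicate 2 (0.14) or Aclyf/f adipocyte replicate 3 (0.0778). Dhx58 was 15.96 ± 4.22 FPKM in Aclyf/f adipocytes, against 20.01 ± 2.58 FPKM in Aclyf/f preadipocytes (log2 change -0.33, 95% interval -0.68 to 0.02, adjusted p = 0.0817). The groups overlap through Aclyf/f adipocyte replicate 1, without which the change was -0.53 and was called (adjusted p = 0.00452). In Acly-/- cells both genes fell, Ifih1 with a log2 change of -1.001 (adjusted p = 3.47e-07) and Dhx58 with one of -1.47 (adjusted p = 3.18e-06).

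**Figure D3:**
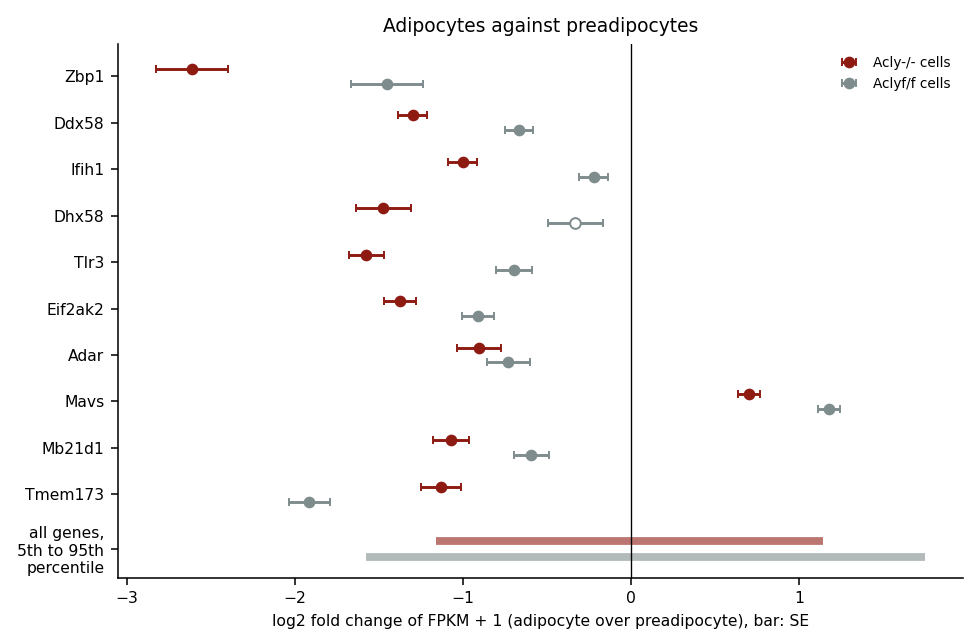
Log2 change of FPKM + 1, adipocyte over preadipocyte, for each sensor gene in Acly-/- cells (red) and Aclyf/f cells (grey); bars are the SE of the limma fit, the open point was not called, and the bands at the bottom run between the 5th and 95th percentiles of all genes tested. All genes but Mavs lie left of 0, and Tmem173 and Mavs lie farther from 0 in Aclyf/f than in Acly-/- cells on their sides.

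Whether the Acly effect itself differed between the stages was tested as the effect in adipocytes minus the effect in preadipocytes, which is also the difference between the 2 differentiation changes. It was called for 9 of the 10 genes, and for 50.2% of all genes tested. The 5th and 95th percentiles of all genes were -1.15 and 1.07, and of the 10 genes Zbp1 alone lies outside them. Adding 1 to FPKM shrinks a change more where levels are lower. The differences of Zbp1 and Tlr3, the lowest in Aclyf/f adipocytes, may thus be overstated. Over the alternative settings they were -1.407 to -0.917 for Zbp1 and -0.954 to -0.777 for Tlr3. For Zbp1 it was -1.16 (log2, adjusted p = 0.00599), for Dhx58 -1.14 (0.00113), for Tlr3 -0.88 (3e-04), for Ifih1 -0.78 (0.000191) and for Ddx58 -0.63 (0.000834). Those 5 genes rose at both stages, and less in adipocytes. Eif2ak2 had a smaller difference of -0.46 (adjusted p = 0.0117), and Adar, at -0.18, was the gene not called (adjusted p = 0.446, 95% interval -0.57 to 0.22). Mb21d1 differed by -0.48 (adjusted p = 0.0177), and both this call and that of Eif2ak2 were lost with each library set to the same FPKM sum (0.0556 for Mb21d1, 0.0557 for Eif2ak2). Mavs differed by -0.48, lower in Acly-/- cells by more in adipocytes (adjusted p = 0.000762). Tmem173 was the gene with a positive difference, 0.79 (adjusted p = 0.00191).

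Across the 12 libraries, 7 genes formed a tight set: Zbp1, Ddx58, Ifih1, Dhx58, Tlr3, Eif2ak2 and Adar correlated with each other at a Pearson r of 0.906 to 0.993. Mavs correlated negatively with all of the other members, from -0.877 to -0.652. These are descriptions over libraries that share genotype and stage. By the same measure, over the same 12 libraries, the 3 genes most like each sensor were named. For Zbp1 they were Trim30d (0.994), Stat2 (0.992) and Cmpk2 (0.986), and for Ddx58 they were Mx1 (0.994), Cmpk2 (0.994) and Trim30d (0.993). Ifih1 was most like Trim34a, Mx1 and Cmpk2, and Dhx58 most like Parp12, Shisa5 and Sp110. Tlr3 was nearest to Mitd1, Dtx3l and Mx1, Eif2ak2 to Parp14, N4bp1 and Tor1aip2, and Adar to Stat2, Trim30d and Ifit3b. The other 3 members had other neighbours: Mavs was most like Acadvl (0.995), a fatty acid oxidation enzyme, Cbs and Prr5, Tmem173 most like Cdk4 (0.994), Cbx6 and Actn1, and Mb21d1 most like Brd9 (0.980), Slit2 and Ahr.

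Genes that work with the RIG-I-like receptors moved in both directions, as did the genes tested at large. Of 18 tested, 7 were higher and 3 lower in Acly-/- preadipocytes, with a median log2 change of 0.14, and 7 were higher and 5 lower in Acly-/- adipocytes, with a median of 0.12; over all genes tested the medians were -0.01 and -0.02. Over the alternative settings, 5 to 7 were higher and 1 to 5 lower in preadipocytes, and 6 to 9 were higher and 4 to 6 lower in adipocytes. In the main fit, 19.7% of all genes tested were called higher and 22.4% lower in preadipocytes, and 25.6% higher and 29.2% lower in adipocytes. Irf7, a transcription factor of the interferon genes, led the list at both stages. It averaged 216 ± 46.1 FPKM in Acly-/- preadipocytes and 25.1 ± 2.04 FPKM in Aclyf/f preadipocytes (SD, n = 3 each; log2 change 3.04, adjusted p = 1.86e-08 in limma). In adipocytes it averaged 130.1 ± 9.20 FPKM in Acly-/- cells and 29.0 ± 7.55 FPKM in Aclyf/f cells (log2 change 2.15, adjusted p = 1.87e-07). Trim25, the ubiquitin ligase of RIG-I, rose to 73.0 ± 6.80 FPKM in Acly-/- preadipocytes, against 35.8 ± 2.28 FPKM in Aclyf/f preadipocytes. Ikbkg, the regulatory subunit of the IKK complex, also rose at both stages, by 1.27 and 0.55 on the log2 scale. Ikbke, a kinase that phosphorylates IRF3 and IRF7, rose in adipocytes by 0.93.

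Of 12 tested genes of cGAS-STING and endosomal Toll-like receptor signalling, 8 were higher and 2 lower in Acly-/- preadipocytes, with a median log2 change of 0.59, and 4 were higher and 4 lower in Acly-/- adipocytes, with a median of 0.17. Among all genes tested, 19.7% were called higher and 22.4% lower in preadipocytes, and 25.6% higher and 29.2% lower in adipocytes. The 4 of the list that rose in adipocytes were Irf5, a transcription factor, and Ifi204, Ifi203 and Mnda, which encode related DNA-binding proteins. Ifi204 averaged 194 ± 21.0 FPKM in Acly-/- adipocytes and 68.9 ± 7.02 FPKM in Aclyf/f adipocytes (SD, n = 3 each; log2 change 1.48, adjusted p = 3.19e-07 in limma). Since these 3 genes are alike in sequence, how reads were shared among them is uncertain. Tlr7, Tlr8, Tlr9 and Aim2, further nucleic acid sensors, were under the filter. The highest of their group means was that of Tlr8, 0.706 FPKM in Acly-/- adipocytes, against 0.120 FPKM in Aclyf/f adipocytes, and the group means of the other 3 were at most 0.259 FPKM.

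Many other RNA sensors and effectors rose too. Of 24 tested, 15 were higher and 4 lower in Acly-/- preadipocytes, with a median log2 change of 1.04, and 17 were higher and none lower in Acly-/- adipocytes, with a median of 0.72. The shares over all genes tested were 19.7% higher and 22.4% lower in preadipocytes, and 25.6% higher and 29.2% lower in adipocytes. At an unadjusted p under 0.05 too, 17 of the 24 were higher and 0 lower in adipocytes. Without Aclyf/f adipocyte replicate 1, 1 gene was lower in adipocytes, Ddx3x (log2 change -0.32, adjusted p = 0.046 in limma). Among the genes that rose are the OAS genes, whose products make the second messenger of RNase L, and the IFIT genes, whose products bind the ends of foreign RNA. Oas3 averaged 14.8 ± 5.74 FPKM in Acly-/- preadipocytes and 0.460 ± 0.121 FPKM in Aclyf/f preadipocytes (SD, n = 3 each). Oas3 passed the filter on low values only through Acly-/- libraries, where it is high, so no test is given for it. Oas1g needed Acly-/- libraries to pass as well, so it is given no test either. In control cells its mean was 0.974 FPKM on day 0 and 0.129 FPKM on day 4. Both genes are nevertheless among the 15 and 17 counted as higher, and both enter the medians. Oas2 averaged 14.2 ± 3.02 FPKM in Acly-/- adipocytes and 0.719 ± 0.220 FPKM in Aclyf/f adipocytes (log2 change 3.13, adjusted p = 3.35e-08 in limma). Ifit3 rose by 2.80 in preadipocytes and by 2.56 in adipocytes, and Oasl1 by 2.75 and 2.42. The OAS and IFIT genes are families of close copies, so values of single members are uncertain. The 4 genes lower in preadipocytes were Dhx9, Dhx33 and Ddx3x, which encode helicases, and Adarb1, which encodes another editing enzyme; the call of Ddx3x was lost with no filter on low values (adjusted p = 0.0534).

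**Figure D4:**
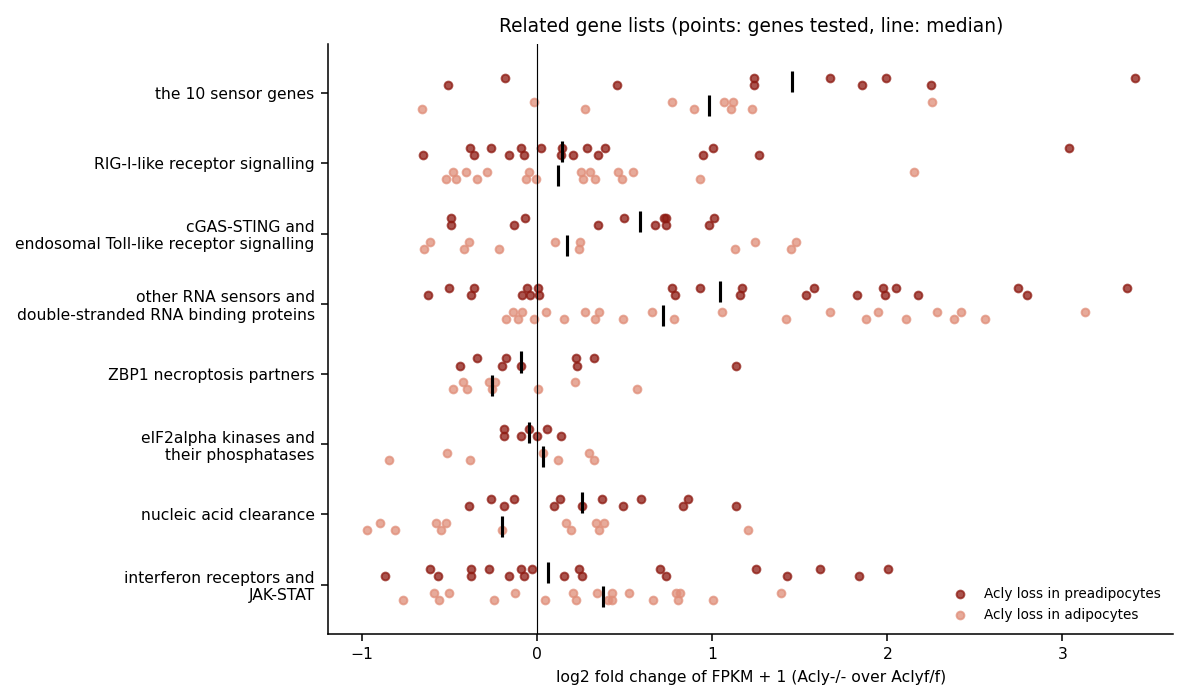
Log2 change of FPKM + 1, Acly-/- over Aclyf/f cells, for the 10 sensor genes and 7 lists of related genes in preadipocytes (dark) and adipocytes (light); each point is a gene tested and the black line is the median of its list. The medians of the 10 sensors (1.46 and 0.98) and of the other RNA sensors (1.04 and 0.72) lie farthest right, and the eIF2alpha kinases lie around 0 in preadipocytes.

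The downstream partners of the sensors changed in both directions. Of 9 genes of necroptosis that work with ZBP1, 2 were higher and 2 lower in Acly-/- preadipocytes, and 2 were higher and 5 lower in Acly-/- adipocytes, with median log2 changes of -0.09 and -0.26. Of all genes tested, 19.7% were called higher and 22.4% lower in preadipocytes, and 25.6% higher and 29.2% lower in adipocytes. Over the alternative settings, 1 to 3 were higher and 2 lower in preadipocytes, and 1 to 2 were higher and 3 to 6 lower in adipocytes. Mlkl, the pore-forming executor, was the one that rose most, to 62.3 ± 6.82 FPKM in Acly-/- preadipocytes, against 27.7 ± 1.14 FPKM in Aclyf/f preadipocytes (SD, n = 3 each; log2 change 1.14, adjusted p = 2.54e-07 in limma). In adipocytes it rose by 0.57. The kinase between ZBP1 and MLKL, Ripk3, had log2 changes of -0.20 and -0.24 that were not called (adjusted p = 0.127 and 0.0531), and it is named here although its values were seen. In adipocytes it was called lower without Acly-/- adipocyte replicate 1 (log2 change -0.35, adjusted p = 0.00874). It was also called lower there with a pseudocount of 0.1 (0.0456), the same FPKM sum (0.0451) and no variance trend (0.0435). The same held for the same FPKM sum without the 10 highest genes (0.0403). Casp6 was lower at both stages, with log2 changes of -0.44 and -0.42. Casp8 was lower at both stages too, with log2 changes of -0.35 and -0.26 (adjusted p = 0.00764 and 0.0273 in limma). Its adipocyte call was lost with no filter, with quantile normalization and without Acly-/- adipocyte replicate 1 or 2 or Aclyf/f adipocyte replicate 1 or 3, at adjusted p values of 0.0577 to 0.0967. Fadd was higher in preadipocytes (log2 change 0.32, adjusted p = 0.0259) and lower in adipocytes (-0.48, adjusted p = 0.00179). Its preadipocyte call was lost with no filter, with the same FPKM sum, with only the groups compared and without Acly-/- preadipocyte replicate 3 or Aclyf/f preadipocyte replicate 1 or 3, at adjusted p values of 0.0505 to 0.119. None of the 7 genes of the other eIF2alpha kinases and their phosphatases was called by limma in preadipocytes, where their median log2 change was -0.05, 1 of them was lower at an unadjusted p under 0.05 and none was higher, and leaving out 1 library gave at most 1 call in either direction. In adipocytes 2 of them were higher (0 to 3 over the alternative settings) and 3 lower, with a median of 0.03, led by the phosphatase subunit Ppp1r15a, at 28.0 ± 0.586 FPKM in Acly-/- cells and 51.2 ± 2.06 FPKM in Aclyf/f cells (log2 change -0.85, adjusted p = 7.35e-07).

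Of 13 genes that clear RNA or DNA, 5 were higher and 1 lower in Acly-/- preadipocytes, with a median log2 change of 0.25, and 4 were higher and 5 lower in Acly-/- adipocytes, with a median of -0.20. Over the alternative settings, 4 to 6 were higher and 1 to 3 lower in preadipocytes, and 1 to 5 were higher and 5 to 6 lower in adipocytes. By comparison, 19.7% of all genes tested were called higher and 22.4% lower in preadipocytes, and 25.6% higher and 29.2% lower in adipocytes. Trex1, the cytosolic DNA exonuclease, rose in preadipocytes by 1.14 (adjusted p = 3.95e-05), and Banf1, which coats DNA, by 0.83. Samhd1, a nuclease and dNTP hydrolase, rose at both stages, to 119.9 ± 14.6 FPKM in Acly-/- preadipocytes, against 65.2 ± 1.51 FPKM in Aclyf/f preadipocytes (log2 change 0.86, adjusted p = 3.47e-06 in limma, n = 3 each). In adipocytes Samhd1 rose by 1.20, while Dnase1l1 had a log2 change of -0.98 and Rnaseh2c, a subunit of the RNase that removes RNA from DNA hybrids, one of -0.90.

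Among 14 interferon genes in the table, 9 sat at the floor of 0.01 FPKM in all 12 libraries. Ifnb1, on which the RIG-I-like receptor, TLR3 and cGAS-STING routes converge, was listed at 2.08, 1.08 and 1.08 FPKM in Acly-/- preadipocytes. It was listed at 0.179, 0.144 and 0.148 FPKM in Acly-/- adipocytes, while it was at the floor in all 6 Aclyf/f libraries. The Acly-/- preadipocyte values correspond to about 13, 4.6 and 8.3 fragments, and each of the Acly-/- adipocyte values to about 1. Ifnb1 passed the filter on low values only through the 3 Acly-/- preadipocyte libraries, the group where it is highest, so no test is given for it at either stage. In adipocytes about 1 fragment per Acly-/- library stands against a constant floor, and whether it was called depended on the pseudocount. No fold is given against a group at the floor. Ifna4 was listed at 0.752 and 0.818 FPKM in Acly-/- preadipocyte replicates 1 and 2, about 3.1 and 2.3 fragments, and at the floor elsewhere. Ifna5 was above the floor in 1 library, and Ifnz and Ifng were low in both genotypes, at most 0.729 FPKM.

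Of 20 tested genes of interferon receptors and JAK-STAT signalling, 8 were higher and 6 lower in Acly-/- preadipocytes, and 12 were higher and 5 lower in Acly-/- adipocytes, with median log2 changes of 0.06 and 0.37. Calls over all genes tested were 19.7% higher and 22.4% lower in preadipocytes, and 25.6% higher and 29.2% lower in adipocytes. Over the alternative settings, 7 to 10 of the 20 were higher and 6 to 7 lower in preadipocytes. Their median there was -0.03 to 0.15, below 0 with each library set to the same FPKM sum. Among the genes that were lower in both comparisons are Stat3, a transcription factor (log2 changes -0.87 and -0.25), and the receptor chains Il10rb (-0.61 and -0.56) and Ifngr1 (-0.57 and -0.59), which were named after their values were seen. Isg15, a ubiquitin-like protein, averaged 571 ± 79.8 FPKM in Acly-/- preadipocytes and 141 ± 10.6 FPKM in Aclyf/f preadipocytes (SD, n = 3 each; log2 change 2.00, adjusted p = 3.36e-06 in limma). Socs1, an inhibitor of this signalling, rose by 1.62 in preadipocytes. In adipocytes Isg15 rose by 1.39, Stat2 by 1.00 and Usp18, which removes ISG15 and restrains the receptor, by 0.82.

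Markers of cell type were measured in the same comparisons. The summed FPKM of 10 adipocyte markers was 6043 to 7475 in Acly-/- adipocytes, against 11360 to 11940 in Aclyf/f adipocytes. On day 0 that sum was 246 to 283 in Acly-/- preadipocytes, against 584 to 599 in Aclyf/f preadipocytes. Most of the day 0 sum is Fabp4, a fatty acid binding protein gene, at 201 FPKM in Acly-/- preadipocytes and 507 FPKM in Aclyf/f preadipocytes. Of 9 adipocyte markers tested, 1 was higher and 3 lower in Acly-/- preadipocytes, and 8 were lower in Acly-/- adipocytes, by limma. Beside these counts, 19.7% of all genes tested were called higher and 22.4% lower in preadipocytes, and 25.6% higher and 29.2% lower in adipocytes. Leptin was at the floor in all libraries. The sum of 8 preadipocyte markers was 701 to 748 in Acly-/- adipocytes, against 143 to 207 in Aclyf/f adipocytes. It was 839 to 1162 in Acly-/- preadipocytes, against 646 to 749 in Aclyf/f preadipocytes, and Dpp4 was at the floor throughout. Most of it is Ly6a, at 834 FPKM in Acly-/- preadipocytes and 466.5 FPKM in Aclyf/f preadipocytes, while Pdgfra, a receptor of preadipocytes, was at 72.1 FPKM in Acly-/- preadipocytes and 131 FPKM in Aclyf/f preadipocytes. Of 4 preadipocyte markers tested, 2 were higher and 1 lower in Acly-/- preadipocytes, and 3 were higher in Acly-/- adipocytes, by limma. The part of these shifts in the sensor levels was not tested. Of the 17 macrophage and leukocyte markers in the table, the defining ones Ptprc, Itgam, C1qa and Tyrobp were at the floor in all libraries. The list summed to 5.07 to 8.09 FPKM in Acly-/- preadipocytes, against 5.01 to 7.70 FPKM in Aclyf/f preadipocytes. On day 4 it was 31.9 to 37.1 FPKM in Acly-/- adipocytes, against 3.29 to 4.66 FPKM in Aclyf/f adipocytes. The last difference is that of Cd68, a lysosomal protein gene, which averaged 32.6 FPKM in Acly-/- adipocytes and 1.498 FPKM in Aclyf/f adipocytes. Markers of endothelium summed to at most 2.23 FPKM in any library. Those of mesothelium and epithelium summed to 4.18 to 6.42 FPKM in Acly-/- preadipocytes, against 1.64 to 2.34 FPKM in Aclyf/f preadipocytes, mostly Krt19.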

How the data were processed

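The deposited table holds FPKM for 24341 genes in 12 libraries, per the file headers, as the authors made it. Named in the submitters' notes on processing, with no role given, are bcl2fastq, Bowtie2 (2.2.6), Cufflinks (2.2.1) and the build mm10. How the table was filtered, its annotation and its use of strand are not stated. No value lies under 0.01, a floor on which 9384 to 10418 genes per library sit. The 10 members and the lists of related genes were chosen with earlier results of these data known.

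The 11777 genes that reached 1 FPKM in 3 or more libraries were tested, and 12564 were not. After log2(FPKM + 1), limma (3.58.1, in R 4.3.3) estimated the 4 group means together, with a variance trend. The Benjamini-Hochberg adjustment ran over all genes tested, in each of 5 contrasts. The fit was tested on simulated data. Genes named beside the members and Acly are the 3 most correlated genes per member, up to 3 genes called with the largest absolute log2 change per list and Acly contrast, the interferon genes and the defining markers, and any other gene was named after its values were seen. A gene that this rule names is not reported here. Depth was estimated from the steps between low FPKM values and from transcript lengths, since the table holds no counts, so fragment numbers are approximate.

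The labels give every group the same replicate numbers. All 3 same-numbered pairs deviated together only in Acly-/- cells between the stages, at correlations of 0.123 to 0.147, and the numbers were taken to pair the libraries there. In Aclyf/f cells between the stages, replicates 1 (0.135) and 3 (0.091) did so and replicate 2 (-0.029) did not. The main fit held no term for such pairing, which the replicate block settings add. Over the other contrasts the correlations were -0.293 to 0.135. Python 3.11.15, numpy 2.4.6, pandas 2.3.3 and matplotlib 3.10.9 were used for tables and figures.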

Additional observations from a re-analysis of the deposited data

Results flagged for a closer look

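The Acly effect differed between the stages, by the interaction term of the limma fit, for 9 of the 10 sensor genes, while 50.2% of all genes tested passed the same test. As the log2 effect in adipocytes minus that in preadipocytes, it was -1.16 for Zbp1, -1.14 for Dhx58, -0.88 for Tlr3, -0.78 for Ifih1 and -0.63 for Ddx58. It was -0.48 for Mavs, -0.48 for Mb21d1 and -0.46 for Eif2ak2, and 0.79 for Tmem173. The 5th and 95th percentiles of all genes were -1.15 and 1.07, and the values of Zbp1 and Tlr3 may be overstated by their low levels in Aclyf/f adipocytes.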

How the results depend on the processing

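The counts of sensor genes called, and of all genes called, stayed within 1.5 times their value under each alternative. Leaving out each library in turn gave 9 to 10 sensor genes called in preadipocytes, 8 to 9 in adipocytes, 10 for differentiation in Acly-/- cells, 8 to 10 in Aclyf/f cells and 9 for the difference between stages. Over all genes it gave 4070 to 5111, 5675 to 6726, 6567 to 7374, 8054 to 8708 and 5310 to 5831 calls. With a replicate block the sensor genes called were 9, 8, 10, 8 and 9 in the same order, and a block within the 6 Acly-/- libraries, added after seeing the data, left the 10 called and 7010 of all genes. Of 1100 values of single sensor genes, 1077 kept their direction and side of the threshold, 16 lost a call and 4 gained one, all given above or in Tmem173 and Dhx58 under quantile normalization (adjusted p = 0.0395 and 0.0391). The Acly effect on Mb21d1 in adipocytes, which was not called, changed sign under quantile normalization (0.012), without Acly-/- adipocyte replicate 2 (0.056) and without replicate 3 (0.011), and ranged from -0.125 to 0.056 when each library was left out; the cause was not tested. With each library set to the same FPKM sum, the share of calls that were higher in Acly-/- cells was 34.7% in preadipocytes, against 46.8% as deposited, and 36.4% in adipocytes, against 46.7%; sensor genes called stayed at 8 higher and 2 lower, and at 7 higher and 1 lower. Depth limits the lowest values: Zbp1 rested on about 42 fragments and Tlr3 on about 77 in their lowest library.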

Other observations

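Among the genes of the related lists, several were called in opposite directions at the 2 stages and kept both calls under each alternative tried. They were chosen after their values were seen. Irf1, an interferon-induced transcription factor, averaged 56.1 ± 3.88 FPKM in Acly-/- preadipocytes and 34.2 ± 3.20 FPKM in Aclyf/f preadipocytes (SD, n = 3 each; log2 change 0.70, limma adjusted p = 9.18e-06). In adipocytes it averaged 28.04 ± 0.376 FPKM in Acly-/- cells and 40.3 ± 1.36 FPKM in Aclyf/f cells (log2 change -0.51, limma adjusted p = 9.73e-05). The Acly effect on Irf1 thus differed between the stages by -1.21 on the log2 scale (limma adjusted p = 1.33e-06). Rnaseh2a, a subunit of the enzyme that cuts RNA in RNA-DNA hybrids, was also higher in Acly-/- preadipocytes (log2 change 0.49) and lower in Acly-/- adipocytes (-0.55), with limma adjusted p = 0.00445 and 0.00133. The opposite order was seen for Ifngr2, a chain of the interferon gamma receptor, with log2 changes of -0.38 in preadipocytes and 0.66 in adipocytes (limma adjusted p = 0.00216 and 1.38e-05). It was seen too for the helicase gene Dhx33, with log2 changes of -0.36 and 0.35 (limma adjusted p = 0.00108 and 0.000888).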
